A study of Homo sapiens with 6 samples.

Results

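FOS and JUN proteins are the subunits of AP-1, a transcription factor made of pairs of leucine zipper proteins. The genes described here are 10 of the 19775 measured in the series: 4 FOS genes (FOS, FOSB, FOSL1 and FOSL2), 3 JUN genes (JUN, JUNB and JUND), BATF3 and MAFF, which code for smaller leucine zipper proteins, and EGR1, a zinc finger factor that is no AP-1 subunit and is induced by the same growth signals. They were chosen by name, and with the differences between cocoa and control arrays already known, so those differences are given as a description, without a test. In all, 23 of 54613 probe sets on the arrays carried only the symbol of 1 of these genes. The cells were HT29, an established human line from a colorectal adenocarcinoma, grown in F12 medium with 7% fetal bovine serum. A total of 300000 cells were plated, and from the next day 3 cultures were kept for 24 h with a polyphenolic cocoa extract (500 µg, volume not given). The other 3 were controls, titled untreated in the sample names and given saline in the treatment protocol. Each culture was read on 1 array. Neither separate culture days nor separate passages are named for the 3 cultures of a group, so errors cover the spread between these arrays, and their number limits the precision.

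AP-1 forms when a FOS protein pairs with a JUN protein, or when JUN proteins pair with each other; FOS proteins do not pair among themselves. The pair binds a short DNA element through the basic region beside each zipper. FOS, FOSB, JUN, JUNB and EGR1 are immediate-early genes, whose transcripts appear within minutes of a growth or stress signal and decay quickly, while FOSL1 and FOSL2 come later and last longer, and JUND is made steadily. FOSL1 depends closely on ERK signalling, which runs high in many colorectal cancer cells, and it has been linked to migration and invasion of such cells.

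The values are log2 expression after RMA, centred by the authors on the median of the 6 arrays for each probe set. They show how arrays differ and hold no expression level, so the 10 genes cannot be ordered by abundance and markers of HT29 cells could not be looked up. In bulk RNA, fewer cells of a type and less RNA per cell cannot be told apart. A gene's value is the mean of its probe sets, a log2 difference is the cocoa mean minus the control mean, and its SE is limma's moderated standard error (n = 3 arrays per group throughout). Medians of the 6 arrays lay between −0.013 and 0.0072. The 18S ribosomal RNA control signal was 3.31 on cocoa array 2 and 1.40 on cocoa array 3, against −1.12 to 0.51 on the other arrays. The 5′ minus 3′ signal of actin and GAPDH was −0.26 on cocoa array 2 and −0.052 on cocoa array 3, against 0.0090 to 0.033 on the others. For some genes, results are also given without 1 or both of these arrays, or with either signal as a covariate.

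FOSL1, which codes for the FOS-related protein FRA-1, was the gene of the 10 with a clear difference. Its log2 value was 0.46, 0.45 and 0.47 on control arrays 1 to 3 and −0.56, −0.45 and −0.78 on cocoa arrays 1 to 3. The control arrays lay within a narrow band, and every cocoa array lay well below them. The log2 difference was −1.06 (SE 0.086, 95% interval −1.25 to −0.87), which is a 2.09-fold lower value with cocoa. In absolute size this difference ranked 96th among the 19775 genes. The spread lay in the cocoa group (SD 0.17) and hardly in the control group (SD 0.011). Over 16 alternative settings the difference ran from −1.31 to −0.97. It was −1.03 without cocoa arrays 2 and 3, and −1.10 and −1.13 with the 18S and the 5′ minus 3′ signal as covariates. FOSL1 was read by 1 probe set, 204420_at, so that no second reading of the transcript was at hand.

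**Figure D1:**
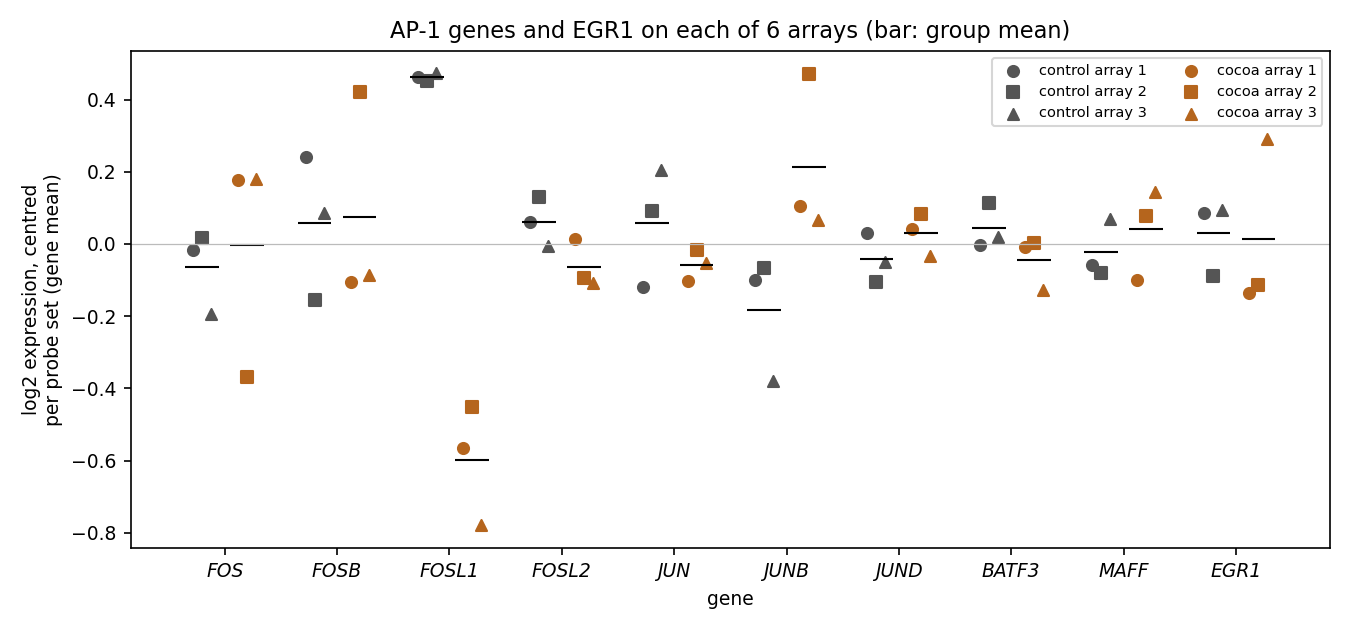
Log2 expression (vertical axis, centred per probe set and averaged per gene) of the 10 genes (horizontal axis) on 3 control and 3 cocoa arrays, with bars at the group means. FOSL1 lies at 0.45 to 0.47 on the control arrays and at −0.78 to −0.45 on the cocoa arrays, while in all others but JUNB the groups overlap.

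FOSL2, coding for FRA-2, the closest relative of FOSL1, had 5 probe sets that disagreed. As their mean, FOSL2 was 0.060, 0.13 and −0.0044 on control arrays 1 to 3 and 0.013, −0.094 and −0.11 on cocoa arrays 1 to 3, with overlapping groups and a log2 difference of −0.13 (SE 0.069, 95% interval −0.28 to 0.030). Probe set 218880_at read 0.13, 0.13 and 0.10 in the controls and −0.10, −0.22 and −0.28 with cocoa, a difference of −0.32 (SE 0.079). Probe set 205409_at read 0.100, 0.22 and 0.075 in the controls and −0.22, −0.19 and −0.075 with cocoa, a difference of −0.29 (SE 0.082). In both of these all cocoa arrays were below all control arrays. Probe set 218881_s_at had a difference of −0.21 (SE 0.14) with overlapping groups. The remaining pair, 225262_at and 228188_at, stood slightly on the other side, at 0.090 (SE 0.11) and 0.11 (SE 0.082). The gene mean therefore blends readings that do not match. Without cocoa arrays 2 and 3 the mean difference was −0.049.

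The promoter of FOSL2 is shown because it alone of the 8 members with an entry in the RefSeq promoter table held the AP-1 element. The element was searched as TGACTCA or TGAGTCA, each the reverse complement of the other, so that both strands are covered, from 250 bases before to 50 after each transcript start. Of 35116 such windows, 4.95% held it, and 5.35% of tested genes with an entry held it in at least 1 window. A match of these letters is a description and no evidence of binding. In FOSL2 (chr2:28392837-28392887, plus strand, GRCh38.p14) the element, in capitals, begins at base 5 of the transcript.
FOSL2: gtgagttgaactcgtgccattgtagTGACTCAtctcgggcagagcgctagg

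FOS, the founding member and partner of JUN, varied between replicate arrays more than it differed between groups. Its log2 value was −0.016, 0.016 and −0.19 on control arrays 1 to 3 and 0.18, −0.37 and 0.18 on cocoa arrays 1 to 3. The lowest and the highest of the 6 values both belonged to cocoa arrays. The log2 difference was 0.061 (SE 0.14, 95% interval −0.25 to 0.38). Cocoa array 2, which carried the highest 18S signal, held the low value. Without that array the difference was 0.24, and with the 5′ minus 3′ signal as a covariate it was 0.30.

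FOSB, a FOS protein with a strong activation domain, read 0.24, −0.16 and 0.086 on control arrays 1 to 3 and −0.11, 0.42 and −0.086 on cocoa arrays 1 to 3. The groups overlapped fully, and the difference was 0.019 (SE 0.15, 95% interval −0.32 to 0.35). Here cocoa array 2 held the highest value, opposite to FOS, and without it the difference was −0.15. Over 16 alternatives the sign of the FOSB difference was kept in 11 and that of FOS in 13.

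JUNB, a JUN protein that activates more weakly than JUN and can restrain it, was higher on every cocoa array. It read −0.10, −0.067 and −0.38 on control arrays 1 to 3 and 0.10, 0.47 and 0.067 on cocoa arrays 1 to 3. The log2 difference was 0.40 (SE 0.12, 95% interval 0.12 to 0.67), a 1.32-fold higher value. The groups did not overlap. Control array 3 was the lowest and cocoa array 2 the highest of the 6. It was 0.27 without cocoa array 2, 0.24 with the 18S signal as a covariate and 0.25 with the 5′ minus 3′ signal. JUNB did not pass the adjusted threshold of the fit over all genes.

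JUN, the most potent activator of the JUN proteins and a target of the JNK kinases, read −0.12, 0.092 and 0.20 on control arrays 1 to 3 and −0.10, −0.017 and −0.053 on cocoa arrays 1 to 3. The cocoa values lay within the range of the controls. The difference was −0.12 (SE 0.087, 95% interval −0.31 to 0.081), and all 4 probe sets were on the same side, between −0.18 and −0.054, each with overlapping groups.

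JUND, the steadily made JUN protein that slows growth in several cell types, had a mean difference of 0.073 (SE 0.068, 95% interval −0.080 to 0.23), with 0.029, −0.10 and −0.051 on control arrays and 0.042, 0.083 and −0.034 on cocoa arrays 1 to 3. The groups overlapped. Of its 4 probe sets, 203752_s_at read −0.18, −0.15 and −0.12 in the controls and 0.22, 0.38 and 0.12 with cocoa, a difference of 0.39 (SE 0.087) and 1.31-fold. All cocoa arrays were above all control arrays in it. The other 3 had differences of −0.039 (SE 0.085), 0.020 (SE 0.10) and −0.083 (SE 0.16), with overlapping groups. All 4 carry a suffix, _s_at or _x_at, that marks possible matches to several transcripts.

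**Figure D2:**
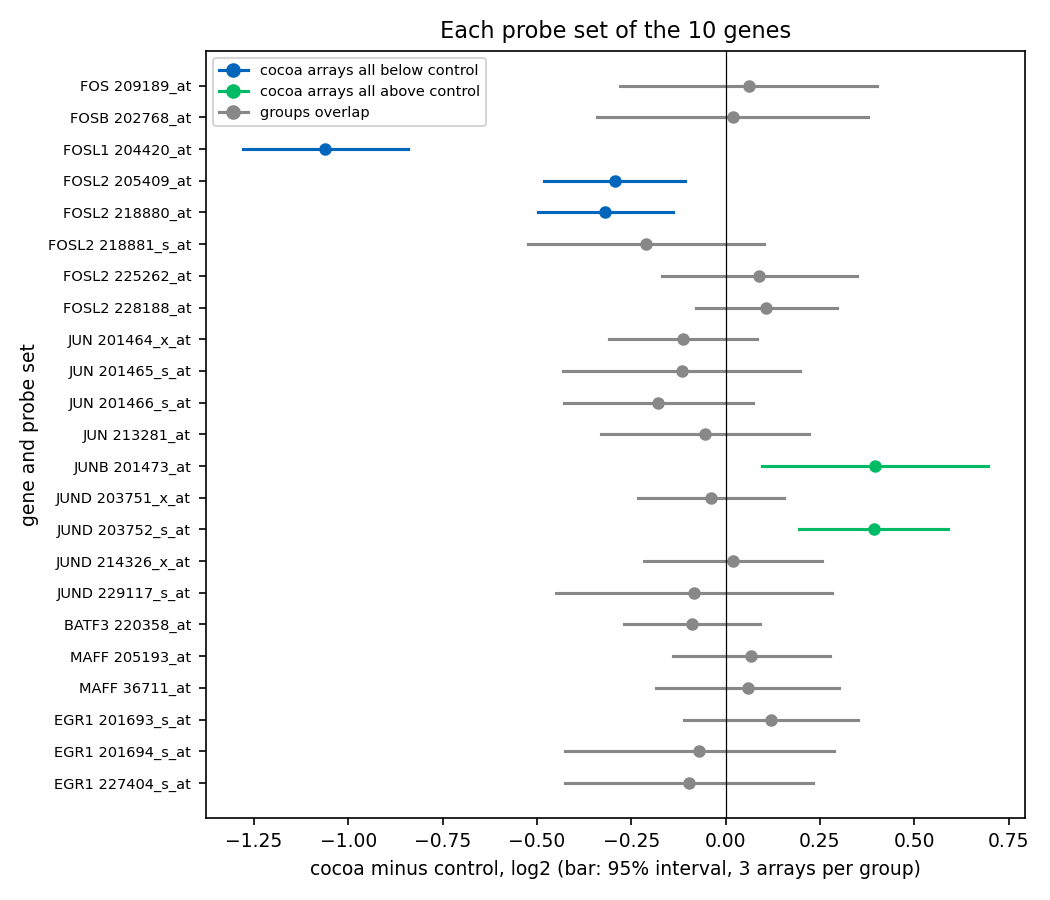
Cocoa minus control log2 difference (horizontal axis) of each of the 23 probe sets (vertical axis), with bars for the 95% interval over 3 arrays per group; colours mark probe sets whose groups do not overlap. FOSL1 stands alone at −1.06, 2 FOSL2 probe sets lie near −0.3, and 1 JUND probe set and JUNB lie near 0.39 and 0.40.

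BATF3, a short zipper protein that pairs with JUN and lacks an activation domain, read −0.0023, 0.11 and 0.021 on control arrays and −0.0087, 0.0023 and −0.13 on cocoa arrays 1 to 3. Its difference was −0.089 (SE 0.069, 95% interval −0.24 to 0.066), and the groups overlapped. MAFF, a small MAF protein that lacks an activation domain, pairs with itself or with NRF factors and is itself stress-induced, read −0.057, −0.080 and 0.069 on control arrays and −0.10, 0.077 and 0.15 on cocoa arrays 1 to 3. Its difference was 0.063 (SE 0.082, 95% interval −0.12 to 0.25), its 2 probe sets lay close together at 0.068 and 0.058, and the groups overlapped. EGR1 read 0.087, −0.090 and 0.093 on control arrays and −0.14, −0.11 and 0.29 on cocoa arrays 1 to 3. The difference of −0.016 (SE 0.12, 95% interval −0.28 to 0.24) took either sign over the alternatives, and the 3 probe sets ran from −0.098 to 0.12. Cocoa array 3 held the highest value of both MAFF and EGR1.

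In the fit over all genes, 1 of the 10 genes, FOSL1, was called at an adjusted p below 0.05, where 13.5% of all genes were called, 6.12% as lower and 7.36% as higher. The groups did not overlap in 2 of the 10, FOSL1 and JUNB, and in 32.5% of all genes. Of the 23 probe sets, 3 were called (FOSL1, 218880_at of FOSL2 and 203752_s_at of JUND), against 7.98% of all probe sets. These shares were known when the genes were chosen, and nothing is read from them. The median absolute difference of the 10 genes was 0.081 and that of all genes 0.099.

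Ordered from the lowest to the highest difference the genes were FOSL1, FOSL2, JUN, BATF3, EGR1, FOSB, FOS, MAFF, JUND and JUNB. The 95% interval of FOSL1 did not meet that of any other. From FOSL2 to JUND the differences ran from −0.13 to 0.073, each interval included 0, and all of them overlapped, so neighbours in this stretch cannot be ordered. The interval of JUNB, which was not called, lay above 0 and above those of FOSL2, JUN and BATF3, and met those of EGR1, FOSB, FOS, MAFF and JUND. All these intervals are a description. The genes were chosen with the differences known, and overlap of intervals is no test between genes. For a gene such as FOS the interval reached 0.32 to either side, so the FOS difference was placed no more closely than that on these arrays. This half-width is not adjusted for the number of genes and is no limit of detection.

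Among the 10 genes FOSB, FOS, JUNB and EGR1 differed most between replicate arrays. The pooled SD within groups was 0.25 for FOSB, 0.24 for FOS, 0.20 for JUNB and 0.18 for EGR1, against a median of 0.095 over all genes. A larger SD was found in 1.59% of genes for FOSB, in 2.44% for FOS, in 6.09% for JUNB and in 8.19% for EGR1. In each of these genes the SD was larger in the cocoa group. It was 0.30 against 0.20 in the controls for FOSB, and 0.31 against 0.11 for FOS. For JUNB it was 0.22 against 0.17, and for EGR1 0.24 against 0.10. Cocoa array 2, with the highest 18S signal, held the highest value of FOSB and JUNB and the lowest of FOS. The steadier members were JUND (0.064), FOSL2 (0.067) and BATF3 (0.067). Averaging over several probe sets lowers a gene's SD, and FOSL2 and JUND have 5 and 4, while the single probe sets of FOS, FOSB and JUNB had no such averaging. For EGR1 the 3 single probe sets had pooled SDs of 0.13 to 0.25, and for JUND the 4 had 0.087 to 0.26. FOSL1, with 1 probe set, and JUN, with 4, each had a pooled SD of 0.12, with a larger one in 33.4% and 32.1% of genes.

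**Figure D3:**
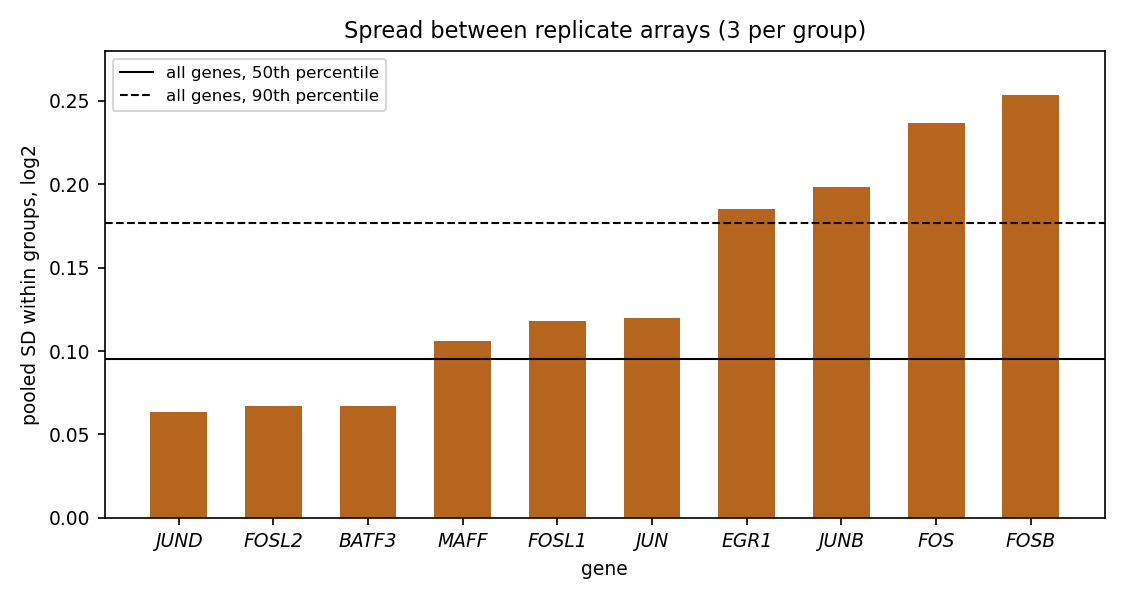
Pooled SD of log2 values within groups (vertical axis, bars from 0) for each of the 10 genes (horizontal axis), with lines at the median (0.095) and the 90th percentile (0.18) of all 19775 genes. FOSB, FOS, JUNB and EGR1 stand above the 90th percentile, and JUND, FOSL2 and BATF3 below the median.

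Around the 10 genes, 6 lists of the pathway were read from the same fit over all genes. These lists, too, were drawn up with earlier results of these data known. Their counts and adjusted p values are therefore a description and no independent test, and no list was tested as a set. In the order below, 10%, 7.69%, 25%, 33.3%, 37.5% and 13.6% of the measured genes were called, against 13.5% of all genes. Of the other leucine zipper genes that pair or compete with FOS and JUN, 10 of 12 were measured, with 1 lower, 0 higher and 9 not passing. The list median was −0.064 and that of all genes −0.012. The largest absolute difference of the list was that of BATF2, at 0.51 (SE 0.15, limma adjusted p = 0.0536), which was not called. In BATF2 all cocoa arrays were above all control arrays. With quantile normalisation or median centring of arrays the list had 1 higher and 1 lower call. ATF3, a stress-induced partner of JUN, fell. It read 0.085, 0.14 and 0.19 on control arrays and −0.47, −0.36 and −0.10 on cocoa arrays 1 to 3, a 1.36-fold lower value (log2 difference −0.45, SE 0.095, limma adjusted p = 0.0145). Its 3 probe sets read −0.80, −0.41 and −0.13, the last with overlapping groups. The ATF3 call was lost without control array 2, control array 3 or cocoa array 2 (adjusted p from 0.00469 to 0.0567 over the fits without 1 array) and with either covariate. Without _s_at and _x_at probe sets ATF3 stood at −0.27 (adjusted p = 0.0471).

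Of the other immediate-early genes 13 of 15 were measured, with 1 higher, 0 lower and 12 not passing, and a median of −0.014. NR4A2, an orphan nuclear receptor, rose 1.33-fold (0.41, SE 0.083, adjusted p = 0.0114). It read −0.31, −0.12 and −0.13 on control arrays and 0.32, 0.25 and 0.10 on cocoa arrays 1 to 3, so the groups did not overlap. Its call held in all 6 fits without 1 array and was lost with the 18S signal (adjusted p = 0.0663) and with the 5′ minus 3′ signal (0.0511) as a covariate, adjusted p 0.0127 to 0.0457 without 1 array. With either covariate the list again had 1 call, of a gene that was lower.

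In the list of kinases and factors that lead to FOS and JUN, 16 of 20 genes were measured, with 2 higher, 2 lower and 12 not passing and a median of −0.10. MAP2K6, a kinase that activates p38, rose 1.76-fold (0.81, SE 0.11, adjusted p = 0.00217). It read −0.24, −0.32 and −0.44 on control arrays and 0.71, 0.23 and 0.51 on cocoa arrays 1 to 3. Its call held in every fit without 1 array and with both covariates, and was lost in the fit without _s_at and _x_at probe sets, which drops 1 of its 2, 205698_s_at (adjusted p = 0.0588). SRF, the serum response factor, which drives FOS and EGR1 together with ELK proteins, fell 1.33-fold. It read 0.34, 0.28 and 0.075 on control arrays and −0.21, −0.084 and −0.24 on cocoa arrays 1 to 3 (log2 difference −0.41, SE 0.085, adjusted p = 0.0130). Its 2 probe sets differed, with 202401_s_at at −0.59 and 202400_s_at at −0.23 (SE 0.14), the latter with overlapping groups. Both carry the _s_at suffix, so SRF was not measured in the fit without such probe sets. Without control array 1 or control array 2 the SRF call was lost (adjusted p 0.0103 to 0.0624 without 1 array), as it was without cocoa arrays 2 and 3 together (0.0925).

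ELK3, an ETS factor that joins SRF at such promoters and can repress them, rose 1.29-fold (0.37, SE 0.072, adjusted p = 0.0101) through 1 of its 2 probe sets, 221773_at at 0.76 against 206127_at at −0.024. The call was lost without control array 2 (adjusted p = 0.0523, 0.00895 to 0.0523 without 1 array) and with either covariate (0.0549 and 0.0523). MAPK8, the JUN kinase JNK1, fell by 0.27 (SE 0.072, adjusted p = 0.0360), a call that was kept in only 1 of the 6 fits without 1 array, the one without cocoa array 1 (0.0234 to 0.141), and was lost without _s_at and _x_at probe sets (0.0608).

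The promoters of EGR1 and SRF are shown because both carry the CArG box that SRF binds, searched on both strands as its consensus and found in 1.29% of all promoter windows. EGR1 (chr5:138465349-138465430, plus strand) and SRF (chr6:43171214-43171293, plus strand, both GRCh38.p14) each hold 2, in capitals. In EGR1 they begin 105 and 83 bases before the transcript start, and in SRF 30 and 10 bases before it. The mean of the 2 SRF probe sets was lower with cocoa, while EGR1 showed no difference beyond its spread.
EGR1: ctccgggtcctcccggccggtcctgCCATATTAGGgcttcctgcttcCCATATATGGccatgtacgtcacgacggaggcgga
SRF: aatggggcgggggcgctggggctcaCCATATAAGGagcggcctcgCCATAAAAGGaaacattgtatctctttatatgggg

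The phosphatases and sprouty genes that inhibit MAP kinase signalling were all 12 measured. Of them 3 were lower, 1 higher and 8 not passing, with a median of −0.14. DUSP5, a nuclear phosphatase of ERK, fell 1.33-fold (−0.41, SE 0.066, adjusted p = 0.00394), with 0.23, 0.27 and 0.16 on control arrays and −0.16, −0.17 and −0.25 on cocoa arrays 1 to 3. DUSP1, a phosphatase of p38, JNK and ERK, fell by 0.37 (SE 0.067, adjusted p = 0.00692), and DUSP4, a nuclear phosphatase induced by ERK, by 0.34 (SE 0.063, adjusted p = 0.00832). In each of these 3 genes all cocoa arrays were below all control arrays, and the calls held in every fit without 1 array and with both covariates. Without cocoa arrays 2 and 3 together none of the 3 was called (adjusted p 0.0653 to 0.0738). In the fit without _s_at and _x_at probe sets, which drops 1 of its 3, DUSP4 stood at −0.25 and was not called (adjusted p = 0.0650). DUSP1 was not measured in that fit, as all 3 of its probe sets carry such a suffix. They read −0.66 (201041_s_at), −0.30 (201044_x_at) and −0.16 (226578_s_at), the last with overlapping groups. SPRY4, which inhibits signals from receptor tyrosine kinases, rose by 0.28 (SE 0.066, adjusted p = 0.0221). Its call was kept without cocoa array 1 and without cocoa array 3 but in no other fit that left out 1 array (0.0270 to 0.0875). It was lost with either covariate. DUSP6 stood at 0.20 (SE 0.078) and SPRY2 at 0.20 (SE 0.092), with all cocoa arrays above all control arrays, and were not called. SPRED1 at −0.23 (SE 0.083) and SPRED2 at −0.21 (SE 0.067) had all cocoa arrays below all control arrays and were not called either.

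Of 9 genes whose products act on the turnover or activity of JUN and FOS proteins, 8 were measured. Of these 3 were lower, 0 higher and 5 not passing, with a median of −0.12. TRIB1, an adaptor of the ligase COP1, fell by 0.34 (SE 0.095, adjusted p = 0.0458), KDM2B, a histone demethylase that can target FOS for removal, by 0.32 (SE 0.071, adjusted p = 0.0181), and COP1, a ligase that marks JUN, by 0.30 (SE 0.077, adjusted p = 0.0309). In all 3 the groups did not overlap. The 3 probe sets of TRIB1 disagreed, with 239818_x_at at −0.84, 202241_at at −0.20 and 235641_at at 0.020. In the fit without _s_at and _x_at probe sets TRIB1 stood at −0.088 (adjusted p = 0.504), and without cocoa array 2 at −0.22 (adjusted p = 0.0736). Among the 6 fits without 1 array TRIB1 was called only without cocoa array 1 (0.0355 to 0.132). KDM2B lost its call without control array 1, control array 2 or cocoa array 3 (0.0206 to 0.0715), and COP1 without any of control arrays 1 and 2 and cocoa arrays 2 and 3 (0.0244 to 0.115) and without _s_at and _x_at probe sets (0.0530). None of them was called with either covariate. The lowest value of TRIB1, −0.46, and that of EZR, −0.45, were those of cocoa array 2.

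Among 24 textbook targets of AP-1, 22 were measured, with 3 lower, 0 higher and 19 not passing, or 13.6% called, and a median of −0.012, the value of all genes. CXCL8, the neutrophil chemokine interleukin-8, fell 1.41-fold (−0.49, SE 0.081, adjusted p = 0.00448). It read 0.20, 0.33 and 0.48 on control arrays and −0.14, −0.13 and −0.21 on cocoa arrays 1 to 3, and its call held in every fit without 1 array and with both covariates but not without cocoa arrays 2 and 3 together (adjusted p = 0.0755). Its 2 probe sets read −0.69 (211506_s_at) and −0.30 (202859_x_at, SE 0.14), the latter with overlapping groups. EZR, the membrane linker ezrin, fell by 0.39 (SE 0.091, adjusted p = 0.0223) and was called only without cocoa array 1 among the 6 fits without 1 array (0.00915 to 0.0885). HMGA1, a chromatin protein, fell by 0.39 (SE 0.080, adjusted p = 0.0128), and lost its call without control array 1 or control array 2 (0.0102 to 0.0646). Its 2 probe sets read −0.62 (210457_x_at) and −0.16 (206074_s_at), the latter with overlapping groups. Like CXCL8, HMGA1 was not measured in the fit without _s_at and _x_at probe sets. With either covariate EZR and HMGA1 were not called. The matrix metalloproteinases, the best known AP-1 targets, did not pass. MMP1 stood at −0.083 (SE 0.067), MMP3 at −0.090 (SE 0.11), MMP9 at 0.0033 (SE 0.094) and MMP10 at 0.089 (SE 0.069). MMP13 stood at 0.49 (SE 0.19, adjusted p = 0.133). It read −0.20, −0.018 and −0.32 on control arrays and 0.018, 0.079 and 0.84 on cocoa arrays 1 to 3. The MMP13 groups did not overlap, and cocoa array 3 held by far the highest value.

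**Figure D4:**
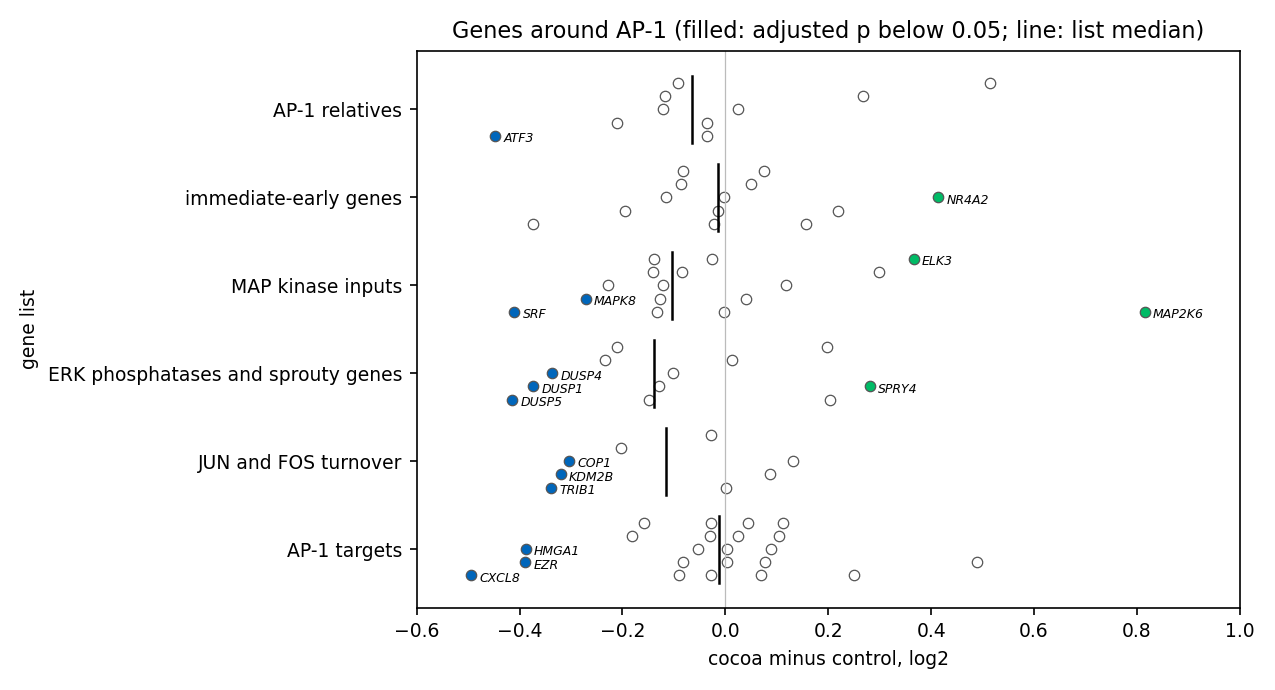
Cocoa minus control log2 difference (horizontal axis) of each measured gene of 6 lists around AP-1 (vertical axis); filled points passed limma's adjusted p of 0.05 and are named, open points did not, and vertical lines mark list medians. MAP2K6 stands highest at 0.81 and CXCL8 lowest at −0.49, and list medians lie between −0.14 and −0.012.

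Of the 14 target genes with an entry in the promoter table, 6 held the AP-1 element. These genes were listed as known AP-1 targets, so the choice set this count in part, and it is not compared with other shares. CXCL8 (chr4:73740407-73740463, plus strand, begins 137 bases before the start) and EZR (chr6:158818260-158818316, minus strand, 56 bases before it, both GRCh38.p14) are shown as those of the 6 that were called lower. HMGA1, the other target called lower, has an entry and did not hold the element. The same letters stood in the windows of PLAUR, IVL, SPRR1A and SPRR1B, which did not pass the test (log2 differences 0.044, 0.25, −0.16 and 0.11). Over all tested genes with an entry, 5.35% held the element, as did 4.54% of the genes called lower and 5.99% of those called higher.
CXCL8: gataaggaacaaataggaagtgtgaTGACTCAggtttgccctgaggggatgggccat
EZR: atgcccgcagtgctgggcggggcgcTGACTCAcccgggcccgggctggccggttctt

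The genes nearest to FOSL1 by Euclidean distance of their log2 values over the 6 arrays were PCSK5, a proprotein convertase (distance 0.29), SPINK4, a goblet cell peptide (0.33), S100A2, a calcium-binding protein (0.35), PI3, the protease inhibitor elafin (0.38), and ARL14, a small GTPase (0.39). Their log2 differences were −0.99, −1.06, −1.29, −0.88 and −1.06, fixed in part by the choice and so given without a test. Pearson's r with FOSL1 over these 6 arrays was 0.96 to 0.99, which the gap between the groups largely sets. FOSL1 and all of these genes but ARL14 had their lowest value on cocoa array 3. The control arrays of FOSL1 spanned far less (SD 0.011) than those of the 5 genes (SD 0.063 to 0.15). Of the 3 of these genes with a promoter entry, S100A2 (chr1:153565865-153565921, minus strand, GRCh38.p14) held the AP-1 element, 52 bases before its start.
S100A2: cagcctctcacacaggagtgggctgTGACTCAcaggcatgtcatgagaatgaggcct

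The third element searched, TGACGTCA, is bound by ATF and CREB proteins and by JUN paired with ATF2, reads the same on both strands and does not contain the AP-1 letters. It was found in 1.85% of all promoter windows. Of tested genes with an entry 3.1% held it, as did 4.44% of those called lower and 3.0% of those called higher. Of the 8 members with an entry 2 held it, JUND (chr19:18281790-18281847, minus strand, begins 200 bases before the start) and MAFF (chr22:38201915-38201972, plus strand, 54 bases before it, both GRCh38.p14). They are shown as the members that held it. Neither, at 0.073 and 0.063, differed between groups beyond the spread of its arrays.
JUND: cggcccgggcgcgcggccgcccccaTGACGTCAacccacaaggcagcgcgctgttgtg
MAFF: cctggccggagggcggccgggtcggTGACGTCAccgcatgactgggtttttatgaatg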

How the data were processed

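Total RNA of 6 HT29 cultures was labelled with biotin and read on Affymetrix Human Genome U133 Plus 2.0 arrays, per the labels' protocols. RMA made the deposited log2 values, per the submitters' processing notes. GeneSpring GX is named in the series text, with no version or filter. The log base follows from RMA and is not named in the table. For each probe set the 6 arrays were centred on a median of 0 (within 5.0e-07), so the deposited values hold differences between arrays and no levels: detection, brightness and length-scaled comparisons between genes were not possible, and the colon epithelial markers of HT29 were not checked.

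Of the 54613 probe sets other than 62 controls, the 41091 with exactly 1 symbol in the platform annotation were averaged per gene (19775 genes). Cocoa minus control was fitted with limma 3.58.1 (lmFit, eBayes) in R 4.3.3 on all genes, with Benjamini-Hochberg adjustment at 0.05, and again on all probe sets. The fit was tested on simulated data. The members and the 6 gene lists were chosen with earlier results of these data known. Named were all members and up to 4 called genes of each list by size (the largest difference where none was called). The 5 genes nearest to the member with the largest difference by Euclidean distance over the arrays were named too. The matrix metalloproteinases, the targets with a promoter match, BATF2, DUSP6, SPRY2, SPRED1 and SPRED2 were added after their values were seen. Promoter windows came from RefSeq (GRCh38.p14). Alternatives were quantile normalisation, array weights, a replicate block, a robust variance prior, median centring of arrays, removal of _s_at and _x_at probe sets, the median of probe sets, each of 2 RNA quality signals as a covariate, a fold threshold of 1.5 and leaving out each array; leaving out cocoa arrays 2 and 3 together was chosen after seeing the data. Dim probe sets were not filtered. Figures were made with Python 3.11.15 and matplotlib 3.10.9. No 2 arrays were copies of each other.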

Additional observations from a re-analysis of the deposited data

How the results depend on the processing

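The FOSL1 difference, which the choice of genes fixed in part, ran from −1.31 under quantile normalisation to −0.97. Of the 9 other members, JUNB, JUN, JUND, FOSL2 and BATF3 kept their sign in every alternative that measured them, while FOS (lowest −0.031), FOSB (lowest −0.21), MAFF (lowest −0.078) and EGR1 (highest 0.082) did not. The FOS difference was 0.30 with the 5′ minus 3′ covariate. Without cocoa arrays 2 and 3, chosen after seeing the data, FOSL2 was at −0.049 and MAFF at −0.078, and the remaining cocoa array was assumed to vary like the controls.

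Genes called over the whole table numbered 2666. They numbered 1103 with the 18S covariate, 1411 with the 5′ minus 3′ covariate, 845 without cocoa arrays 2 and 3, 446 at 1.5-fold or more, and 1315 to 2881 without 1 array. With 1 array left out, calls in the lists ranged from 0 to 2 in AP-1 relatives, 1 to 2 in immediate-early genes, 1 to 4 in MAP kinase inputs, 3 to 5 in ERK phosphatases and sprouty genes, 0 to 3 in turnover genes and 1 to 4 in AP-1 targets. Either covariate left 0 calls in AP-1 relatives, 2 in MAP kinase inputs, 0 in turnover genes and 1 in AP-1 targets. The immediate-early genes kept 1 call with either covariate, but it turned from 1 higher and 0 lower to 0 higher and 1 lower. Without cocoa arrays 2 and 3 there were 2 calls in immediate-early genes, 2 in MAP kinase inputs, and 0 in ERK phosphatases and sprouty genes, turnover genes and AP-1 targets. AP-1 relatives had 3 calls with array weights and 2 with quantile normalisation or median centring, and immediate-early genes 2 with array weights. Without _s_at and _x_at probe sets, which left 9 of the 16 called list genes, there were 0 calls in immediate-early genes, 1 in MAP kinase inputs, 0 in turnover genes and 1 in AP-1 targets. All 16 called list genes kept their sign wherever they were measured. Why the calls moved was not tested beyond these settings.

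Replicate numbers did not pair the arrays: same-numbered deviations correlated at −0.12, −0.0089 and −0.0031. With the replicate block 1947 genes were called, among them 2 members, FOSL1 and JUNB, and 2 immediate-early genes. Of the 16 called list genes 12 were called with it, and MAPK8 (adjusted p = 0.0766), SPRY4 (0.0548), TRIB1 (0.0654) and EZR (0.0514) were not. The values hold no signal over background, so the part of dim probe sets was not tested.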
